A study of Mus musculus with 7 samples.

Results

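Caveolae are small flask-shaped pits of the plasma membrane. Their coat is built from caveolins, which are wedged into the membrane, and from cavins, which form a layer on its inner face. The ATPase EHD2 sits at the neck, and the F-BAR protein PACSIN2 bends membrane while the pit forms. Fibroblasts, adipocytes, endothelial cells and muscle cells are known to carry many caveolae, which flatten under tension and buffer the cell surface. The 8 genes described here encode this coat and its neck and curvature proteins, and are together called coat genes. They are 8 of the 29955 gene rows of the table. They were taken by symbol (Cav1, Cav2, Cav3, Ptrf, Sdpr, Prkcdbp, Ehd2 and Pacsin2), with no threshold on any value. Ptrf, Sdpr and Prkcdbp are older symbols of the genes of cavins 1, 2 and 3. The family itself was selected on knowledge of the log2 differences between these genotypes in the same libraries, so its differences are given as descriptions.

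RNA was sequenced from 7 libraries of C57BL/6 mouse embryonic fibroblasts, all of which lacked p53. The p53KO Mdm2(C462A) KI group, called Mdm2 C462A here, carried a knocked-in C462A substitution in the RING domain of Mdm2, besides the loss of p53, and had 2 libraries. The p53Mdm2 KO group lacked Mdm2 as well and had 2 libraries. The p53 KO group was the control and had 3 libraries. Mdm2 is a ubiquitin ligase best known for targeting p53, and the study concerned what it does independently of p53, with Polycomb repression in view. The labels describe neither the alleles nor whether replicates were separate embryos, cultures or clones, so the spread behind each p-value is that between libraries and may be technical.

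Values are normalized reads, recovered from the log2-like values that the authors deposited. Libraries held between 28.5 and 41.5 M reads (M for 1e6). Mdm2 had 2033 and 2887 normalized reads in Mdm2 C462A, 1575 and 2334 in p53Mdm2 KO and between 1746 and 1994 in p53 KO, and these totals check no label. Trp53, which encodes p53, had 1339 and 1668 in Mdm2 C462A, 1603 and 1775 in p53Mdm2 KO and 687 to 1396 in p53 KO, and a deleted part of either gene cannot be read from gene totals. Across the 16900 genes tested, 2 libraries stood apart. The highest correlation of p53 KO replicate 1 with any other library was r = 0.9194 and that of Mdm2 C462A replicate 2 was 0.9595, against 0.979 to 0.9876 for the other 5. Such values are across genes, which are not independent replicates. All 8 fibroblast markers passed the filter on low values, and their summed level was 1438650 and 985038 normalized reads in Mdm2 C462A, 1385200 and 913796 in p53Mdm2 KO and 963867 to 2093120 in p53 KO. Of the 8, Col1a1, Col3a1 and Vim were lower in both Mdm2 C462A libraries than in all 3 p53 KO libraries, as 6 coat genes were. Of all genes tested 14.4% were lower in this way. The remaining markers overlapped, and Pdgfra (16430) and Thy1 (36470) were higher in Mdm2 C462A replicate 1 than in any p53 KO library. Col1a1 had 384424 and 224903 in Mdm2 C462A against 457995 to 689145 in p53 KO, Col3a1 76168 and 64621 against 98194 to 166679, and Vim 85185 and 40846 against 98410 to 155416. Both p53Mdm2 KO libraries also lay below all 3 p53 KO libraries for Col1a1 (392347 and 187977) and Col3a1 (96702 and 28420). For Vim they overlapped p53 KO (110204 and 151271). The part of these markers in the coat values was not tested. In p53 KO replicate 1 the fibroblast markers Thy1 and Col1a2 had 99.1 and 3456 normalized reads, against at least 6592 and 175050 in every other library.

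The deposited table gives no sequence, so start sites were taken from RefSeq (GRCm38.p6, while the submitters' processing notes name mm9). Of the 8 members, 7 were matched there, with 11 start sites in all. The 250 bases before the start site of 4 members are shown because the results below turn on them. Cav1, Ptrf and Ehd2 had the highest correlations among members over all 7 libraries, which did not hold without Mdm2 C462A replicate 2. The ratio of Sdpr to Ptrf was higher in Mdm2 C462A and in p53Mdm2 KO than in p53 KO. Between Mdm2 C462A and p53Mdm2 KO it overlapped. Each window reads 5′ to 3′ on the gene's own strand and ends at the base before the start. Capitals mark GC boxes (GGGCGG, the core of Sp1 sites) and CCAAT boxes (CCAAT), on either strand.
Cav1 (chr6:17306085-17306334, plus strand): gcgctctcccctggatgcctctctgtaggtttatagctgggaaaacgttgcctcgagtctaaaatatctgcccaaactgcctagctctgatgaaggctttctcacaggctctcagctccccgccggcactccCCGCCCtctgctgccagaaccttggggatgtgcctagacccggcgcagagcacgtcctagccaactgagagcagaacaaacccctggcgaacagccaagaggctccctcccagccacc
Ptrf (chr11:100970618-100970867, minus strand): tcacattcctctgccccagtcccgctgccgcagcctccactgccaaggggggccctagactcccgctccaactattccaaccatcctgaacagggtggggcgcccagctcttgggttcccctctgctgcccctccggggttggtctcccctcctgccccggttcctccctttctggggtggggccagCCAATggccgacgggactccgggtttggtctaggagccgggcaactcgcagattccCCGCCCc
Ehd2 (chr7:15967536-15967785, minus strand): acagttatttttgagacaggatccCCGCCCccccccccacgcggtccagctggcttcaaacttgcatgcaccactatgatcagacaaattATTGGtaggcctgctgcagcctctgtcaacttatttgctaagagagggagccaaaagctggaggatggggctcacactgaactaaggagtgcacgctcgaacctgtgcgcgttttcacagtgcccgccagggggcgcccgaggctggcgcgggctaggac
Sdpr (chr1:51288876-51289125, plus strand): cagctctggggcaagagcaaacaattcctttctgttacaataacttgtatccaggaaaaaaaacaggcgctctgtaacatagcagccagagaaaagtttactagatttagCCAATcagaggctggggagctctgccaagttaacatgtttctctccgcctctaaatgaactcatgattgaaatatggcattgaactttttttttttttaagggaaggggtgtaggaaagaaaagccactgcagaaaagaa
The Cav1 window shown held 1 GC box and no CCAAT box, and the window of its other annotated start held neither. Those shown for Ptrf and Ehd2 held 1 of each, and that of Sdpr held 1 CCAAT box and no GC box. Over all 11 start sites, 6 had a GC box and 6 a CCAAT box, counting both Ptrf windows, which largely coincide. By gene, 5 of the 7 members had a GC box and 5 a CCAAT box. Among the 32851 start sites of all genes, 32.7% had a GC box and 33.9% a CCAAT box. The TEAD site GGAATG was found before both annotated starts of Ptrf, which lie close together, and before no other member (12.6% of all start sites). The CHR element TTTGAA, known from cell cycle genes, was found before Ehd2 alone (16.0% of all start sites). The CArG box, bound by SRF, was found before none of the members (1.47% of all start sites). The motifs were chosen with the members' values known, both strands were searched, and no 2 matches in the 4 windows overlapped. The G and C content was 40.4% before Sdpr, 59.6% before Cav1, 67.6% before Ptrf and 58.0% before Ehd2, with a median of 52.4% over all start sites. On chromosome 6, Cav2 and Cav1 are neighbours with 0 RefSeq genes between them.

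Set per kilobase of exon (GENCODE M21 gene models, not the authors' annotation), Ptrf and Cav1 gave the most transcript of the coat in p53 KO fibroblasts. The mean level there was 9823 normalized reads per kb for Ptrf and 6948 for Cav1. Sdpr, Ehd2 and Prkcdbp followed with 2744, 2506 and 2012 per kb, then Pacsin2 with 1071 and Cav2 with 869. Cav3, the caveolin of muscle, came last with 10.8 per kb. Neighbours in this order were not all apart: over the 3 p53 KO libraries Cav1 spanned 5553 to 8784 per kb and Ptrf 7990 to 11769, and Cav1 stood above Ptrf in replicate 3. Pacsin2 (843 to 1284 per kb) and Cav2 (465 to 1566) overlapped too. The levels of Sdpr (2303 to 3432 per kb) overlapped those of Ehd2 (2146 to 2774) and Prkcdbp (1593 to 2737). Ptrf was the highest of the 8 per kb in 6 of the 7 libraries, and Cav3 the lowest in all 7.

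**Figure D1:**
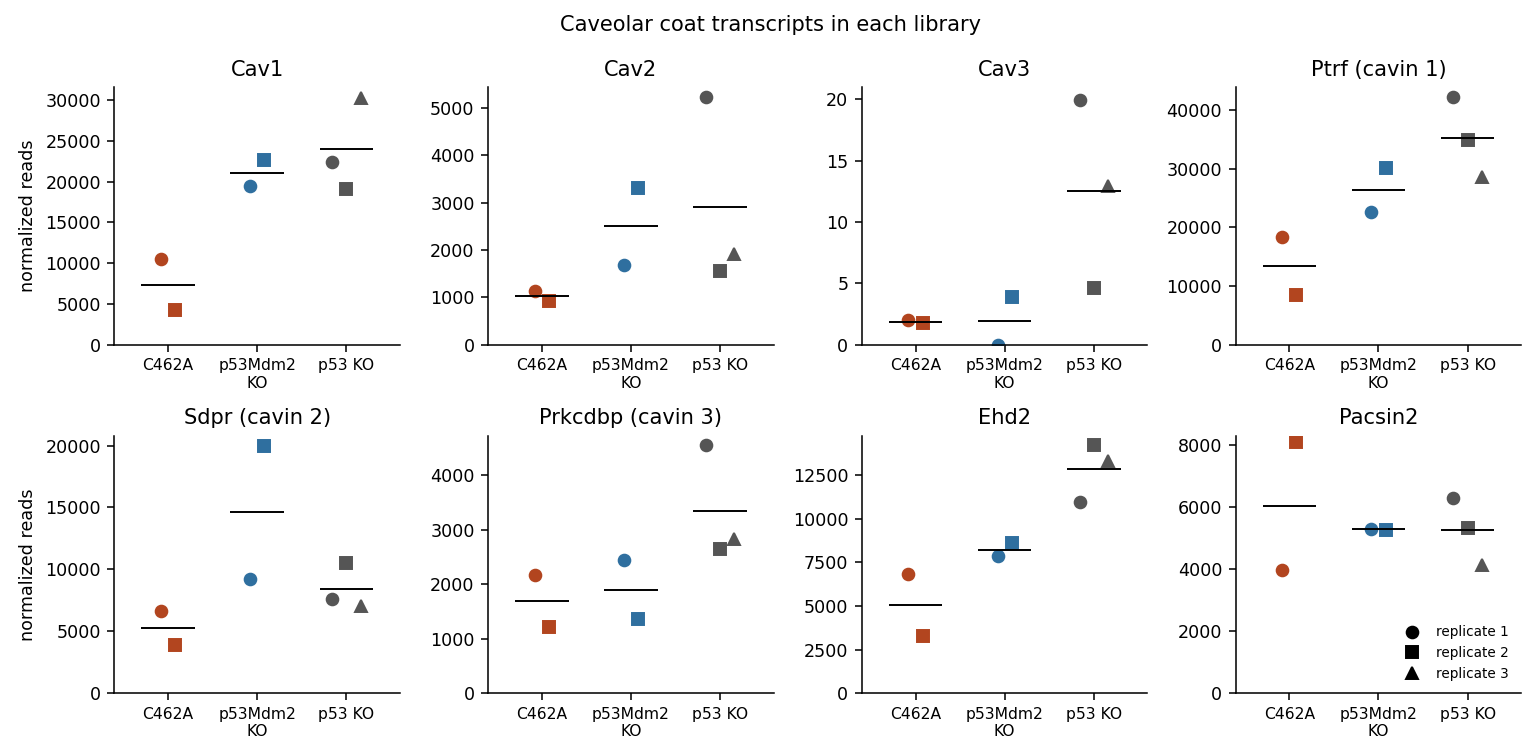
Normalized reads (y axis, linear from 0, a separate scale per gene) of the 8 coat genes in every library, grouped along the x axis by genotype. Symbols give the replicate number and bars the group mean. For Cav1, Cav2, Ptrf, Sdpr, Prkcdbp and Ehd2 both Mdm2 C462A points lie below all 3 p53 KO points, whereas Pacsin2 overlaps.

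The caveolins are the membrane part of the coat. Cav1, without which fibroblasts form no caveolae, had 10466 and 4218 normalized reads in the Mdm2 C462A libraries, 19449 and 22672 in p53Mdm2 KO, and 22408, 19126 and 30252 in p53 KO. Both Mdm2 C462A libraries lay below the other 5, and p53Mdm2 KO overlapped p53 KO. The group means were 7342 ± 4417 in Mdm2 C462A, 21060 ± 2279 in p53Mdm2 KO and 23929 ± 5717 in p53 KO (SD, n = 2, 2 and 3), and the Mdm2 C462A mean was 30.7% of that in p53 KO. In bulk RNA, fewer cells of a type and less RNA per cell cannot be told apart. On the deposited log2 scale Cav1 differed by -1.82 (SE 0.408) between Mdm2 C462A and p53 KO. The difference was -0.16 (SE 0.408) between p53Mdm2 KO and p53 KO, and -1.66 (SE 0.447) between Mdm2 C462A and p53Mdm2 KO. The first of these was -1.17 without Mdm2 C462A replicate 2, and the last was -1.003.

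Cav2, a caveolin that needs Cav1 to reach the cell surface, had 1128 and 927 normalized reads in Mdm2 C462A, 1686 and 3310 in p53Mdm2 KO, and 5222, 1552 and 1919 in p53 KO. Its Mdm2 C462A values again lay below all others, and p53 KO replicate 1 stood far above the rest of its group. The log2 difference between Mdm2 C462A and p53 KO was -1.27 (SE 0.554), and -0.74 without p53 KO replicate 1. Between Mdm2 C462A and p53Mdm2 KO it was -1.19 (SE 0.607), or -0.71 without p53Mdm2 KO replicate 2. Between p53Mdm2 KO and p53 KO it was -0.08 (SE 0.554). That last value changed sign without p53 KO replicate 1 (0.45) and without p53Mdm2 KO replicate 1 (0.40).

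Cav3 is the caveolin of striated muscle and was barely read. It had 2 and 2 reads in Mdm2 C462A, 0 and 3 in p53Mdm2 KO, and 22, 5 and 12 in p53 KO, before normalization. In Mdm2 C462A and p53Mdm2 KO these were no more than the 3 reads that a library with none could still hold, and the gene missed the filter of a mean of 10 normalized reads. Its difference was therefore not tested and no fold is given. Floors of this kind cover counting error only.

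The cavins assemble on the caveolins from the cell interior. Ptrf, the cavin 1 gene on which the coat depends, had 18386 and 8464 normalized reads in Mdm2 C462A, 22583 and 30155 in p53Mdm2 KO, and 42217, 34826 and 28660 in p53 KO. Mdm2 C462A lay below both other groups, and p53Mdm2 KO replicate 2 overlapped p53 KO. The Mdm2 C462A mean of 13425 ± 7016 was 38.1% of the p53 KO mean of 35235 ± 6788 (SD, n = 2 and 3). Log2 differences were -1.48 (SE 0.374) for Mdm2 C462A against p53 KO, -0.41 (SE 0.374) for p53Mdm2 KO against p53 KO and -1.06 (SE 0.409) for Mdm2 C462A against p53Mdm2 KO. Without Mdm2 C462A replicate 2 the first was -0.92 and the last -0.50, and without p53Mdm2 KO replicate 1 the middle one was -0.21.

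Sdpr, the gene of cavin 2, whose protein helps curve the membrane, had its highest mean in p53Mdm2 KO. It had 6673 and 3879 normalized reads in Mdm2 C462A, 9249 and 19977 in p53Mdm2 KO, and 7624, 10484 and 7037 in p53 KO. The highest value of all 7 libraries was that of p53Mdm2 KO replicate 2, and Mdm2 C462A stood below both other groups. Log2 differences were -0.70 (SE 0.403) for Mdm2 C462A against p53 KO and 0.72 (SE 0.403) for p53Mdm2 KO against p53 KO. Mdm2 C462A and p53Mdm2 KO differed by -1.41 (SE 0.441). Without p53Mdm2 KO replicate 2 the value of p53Mdm2 KO against p53 KO was 0.16, that between the Mdm2 genotypes was -0.86, and without Mdm2 C462A replicate 2 that of Mdm2 C462A against p53 KO was -0.31.

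Prkcdbp, which encodes cavin 3, had 2170 and 1216 normalized reads in Mdm2 C462A, 2433 and 1353 in p53Mdm2 KO, and 4549, 2648 and 2835 in p53 KO. All 4 libraries with an Mdm2 defect lay below all 3 p53 KO libraries, and the Mdm2 C462A and p53Mdm2 KO ranges overlapped. The log2 difference from p53 KO was -0.99 (SE 0.393) in Mdm2 C462A and -0.83 (SE 0.393) in p53Mdm2 KO, and both use the same 3 p53 KO libraries. The Mdm2 C462A value was -0.58 without Mdm2 C462A replicate 2, and the p53Mdm2 KO value was -0.41 without p53Mdm2 KO replicate 2. Without p53 KO replicate 1, the highest of its group, they were -0.75 and -0.59. With both that library and Mdm2 C462A replicate 2 left out, the Mdm2 C462A value was -0.33. Between Mdm2 C462A and p53Mdm2 KO the difference was -0.16 (SE 0.430), and it turned to 0.26 without p53Mdm2 KO replicate 1. In the annotation used here an unnamed transcript on the other strand overlaps Prkcdbp, and antisense transcripts overlap Cav1, Cav2 and Sdpr. Whether the counting used strand is unknown, and reads of such partners cannot be told apart.

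Outside the coat proper are the neck and curvature proteins. Ehd2, whose ATPase holds caveolae at the membrane, had 6846 and 3299 normalized reads in Mdm2 C462A, 7873 and 8580 in p53Mdm2 KO, and 10984, 14199 and 13308 in p53 KO. The 3 genotypes did not overlap, with Mdm2 C462A lowest and p53 KO highest. The means were 5072 ± 2508 in Mdm2 C462A, 8226 ± 500.2 in p53Mdm2 KO and 12830.2 ± 1660 in p53 KO (SD, n = 2, 2 and 3). Log2 differences were -1.42 (SE 0.318) for Mdm2 C462A against p53 KO, -0.63 (SE 0.318) for p53Mdm2 KO against p53 KO and -0.79 (SE 0.349) for Mdm2 C462A against p53Mdm2 KO. The first was -0.90 without Mdm2 C462A replicate 2, and the last was -0.26.

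Pacsin2 had overlapping values in all 3 genotypes. It had 3976 and 8089 normalized reads in Mdm2 C462A, 5306 and 5253 in p53Mdm2 KO, and 6300, 5333 and 4136 in p53 KO. The Mdm2 C462A libraries held both the lowest and the highest value of the 7, and they enclosed both other groups. Log2 differences were 0.13 (SE 0.331) for Mdm2 C462A against p53 KO and 0.03 (SE 0.331) for p53Mdm2 KO against p53 KO. Between Mdm2 C462A and p53Mdm2 KO the value was 0.10 (SE 0.363). The first turned to -0.38 without Mdm2 C462A replicate 2. A processed pseudogene lies within Pacsin2 on the same strand, so its count is uncertain to that extent.

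**Figure D2:**
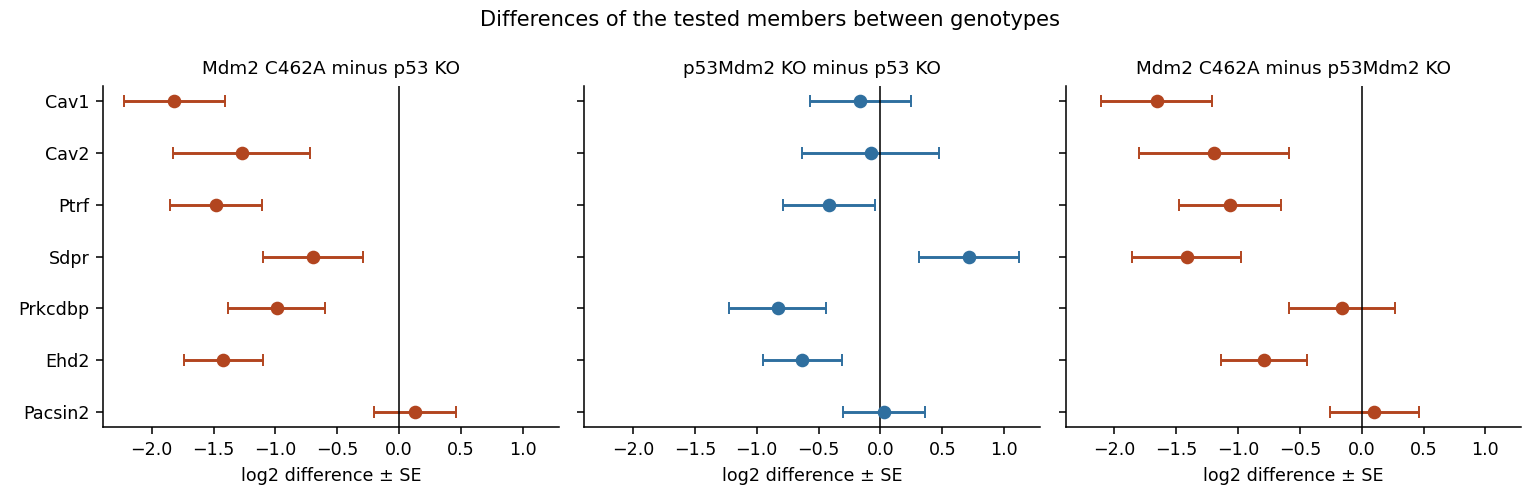
Log2 difference on the deposited scale (x axis) of the 7 tested members, with bars of 1 standard error from limma, in the 3 genotype comparisons. Values left of the line at 0 are lower in the genotype named first. Cav1, Ptrf and Ehd2 have differences of -1.82, -1.48 and -1.42 between Mdm2 C462A and p53 KO, and no member passed the adjusted test.

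Of the 8 members, 7 passed the filter and entered limma's fit over 16900 genes. Between Mdm2 C462A and p53 KO, 6 of these 7 were lower and 1 was higher, with a median log2 difference of -1.27 beside 0.01 over all genes tested. By limma with Benjamini-Hochberg adjustment over all genes, 0 of the 7 were called, as were 0% of all genes, and the members' lowest adjusted p was 0.437. At an unadjusted p under 0.05, 4 members were lower (Cav1, Ptrf, Prkcdbp and Ehd2), beside 5.44% of all genes on the lower side, and 0 were higher, beside 4.98%. Libraries of the groups did not overlap for 6 members, all lower, beside 14.4% of all genes on that side and 14.1% on the higher side. Without p53 KO replicate 1 and Mdm2 C462A replicate 2 that count was 7 of 7, Pacsin2 included, beside 38% of all genes lower and 38.4% higher, since 1 library then stood against 2. Because the family was picked with these values known, nothing is read from the counts.

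Between p53Mdm2 KO and p53 KO, 5 of 7 members were lower and 2 higher, with a median log2 difference of -0.16 beside -0.01 over all genes. By limma 0 were called (0% of all genes), and 0 had an unadjusted p under 0.05, beside 1.49% of all genes lower and 1.51% higher. Non-overlapping libraries were found for Prkcdbp and Ehd2, both lower, beside 9.2% of all genes lower and 8.99% higher. They were the same 2 members without the libraries that stand apart, beside 18.5% of all genes lower and 17.6% higher. Between Mdm2 C462A and p53Mdm2 KO, 6 of 7 were lower and 1 higher, with a median of -1.06 beside 0.01 over all genes. Limma called 0 (0% of all genes), and Cav1, Ptrf and Sdpr had an unadjusted p under 0.05 on the lower side, beside 1.78% of all genes, and 0 on the higher side, beside 1.2%. Libraries did not overlap for 5 members, Cav1, Cav2, Ptrf, Sdpr and Ehd2, all lower, beside 17.1% of all genes lower and 15.8% higher. Without the libraries that stand apart it was 6 members lower, Pacsin2 being the one added, beside 30.3% of all genes lower and 32.7% higher. Over all 16900 genes 0 were called in any of the 3 comparisons by limma or by its voom method, while 1761, 507 and 503 had an unadjusted p under 0.05 in limma.

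Since a ratio within a library does not depend on the scaling between libraries, the balance of coat parts was compared as ratios of normalized reads, chosen after the values were seen and given with no test. Sdpr over Ptrf, the balance of cavin 2 to cavin 1, was 0.363 and 0.458 in Mdm2 C462A, 0.410 and 0.662 in p53Mdm2 KO, and 0.181, 0.301 and 0.246 in p53 KO. Each of the 4 libraries with an Mdm2 defect had a higher ratio than each p53 KO library. In Mdm2 C462A this went with lower Ptrf and, to a smaller degree, lower Sdpr, and in p53Mdm2 KO replicate 2 with the high Sdpr value given above. Prkcdbp over Ptrf was 0.118 and 0.144 in Mdm2 C462A, 0.108 and 0.0449 in p53Mdm2 KO, and 0.108, 0.0760 and 0.0989 in p53 KO. Only Mdm2 C462A stood apart there, on the higher side. Cav1 over Cav2 was 9.28 and 4.55 in Mdm2 C462A, 11.5 and 6.85 in p53Mdm2 KO, and 4.29, 12.3 and 15.8 in p53 KO, and all genotypes overlapped. The lowest Cav1 to Cav2 ratio was that of p53 KO replicate 1, the library with the most Cav2.

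**Figure D3:**
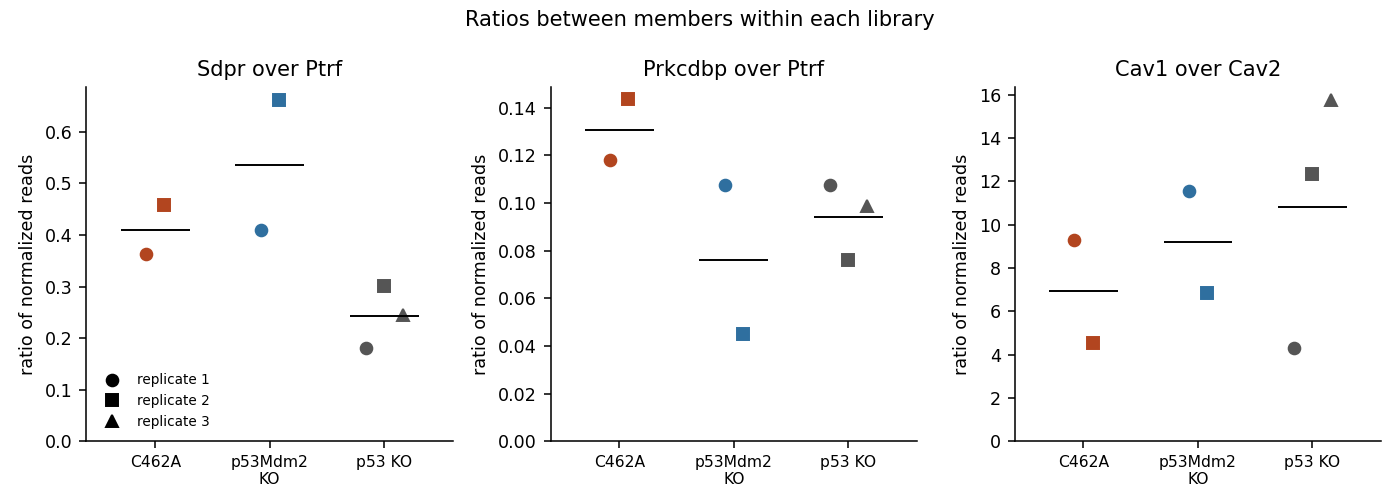
Ratio of normalized reads between 2 members within each library (y axis, linear from 0), by genotype along the x axis. Symbols give the replicate and bars the group mean. The Sdpr to Ptrf ratio is 0.363 or more in all 4 libraries with an Mdm2 defect and 0.301 or less in p53 KO.

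Over the 7 libraries, on the deposited scale, Ptrf and Ehd2 had a Pearson r of 0.92, Cav1 and Ptrf 0.91, and Cav1 and Ehd2 0.91. These are descriptions over libraries that share 3 genotypes. Of the 15 pairs among the 6 members other than Pacsin2, 14 had r above 0.5, and the exception was Sdpr with Prkcdbp (-0.02). Pacsin2 had r between -0.56 and 0.02 with the others. With Mdm2 C462A replicate 2 left out, a choice made after seeing the data, r above 0.5 was left in 5 of the 15 pairs. The highest was then Cav2 with Ptrf (0.77), and Ptrf and Cav2 each had 0.74 with Pacsin2. Ptrf with Ehd2 was 0.73, Cav1 with Ehd2 0.66 and Cav1 with Ptrf 0.64, Sdpr with Prkcdbp was -0.71, and Pacsin2 had positive r with all 6 others (0.21 to 0.74). With p53 KO replicate 1 left out as well, 8 of the 15 pairs had r above 0.5, the highest being Cav2 with Sdpr (0.85). Cav2 with Ptrf was then 0.56, Ptrf with Pacsin2 0.55 and Cav2 with Pacsin2 0.48, while Prkcdbp with Pacsin2 was -0.28.

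**Figure D4:**
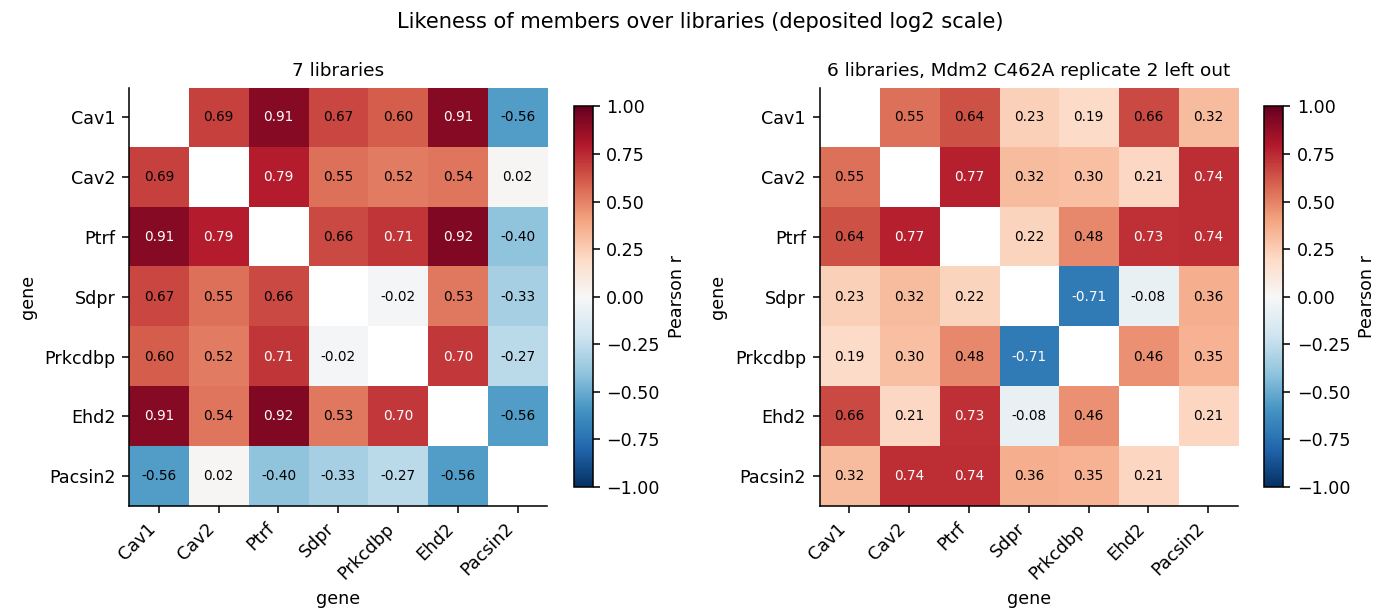
Pearson r between each pair of the 7 tested members over 7 libraries (left) and over 6 libraries without Mdm2 C462A replicate 2 (right), genes on both axes and r as colour and number. The Cav1, Ptrf and Ehd2 pairs have r of 0.91 or more on the left and between 0.64 and 0.73 on the right.

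Among the 12852 other genes with a mean of at least 100 normalized reads, those most like Cav1 by Pearson r over the 7 libraries were Tmem43 (0.985), Tpx2 (0.982), Hyls1 (0.981), Mns1 (0.977) and Cenpl (0.977). Tmem43 encodes a nuclear envelope protein, Tpx2 a spindle assembly factor and Cenpl a centromere protein. Tpx2 had 5167 and 3462 normalized reads in Mdm2 C462A, 6206 and 7768 in p53Mdm2 KO, and 7664, 7479 and 8544 in p53 KO. Most like Ptrf among genes with a symbol were Rangap1 (0.9996), Actr1a (0.997), Cenpt (0.996), Ercc6l (0.994) and Incenp (0.992). Incenp was in place 7 when genes with clone-type names were counted too. Rangap1 encodes the GTPase activator of Ran, Cenpt a centromere protein, Ercc6l a DNA helicase of mitotic chromosomes and Incenp a subunit of the chromosomal passenger complex. Incenp had 2338 and 1370 normalized reads in Mdm2 C462A, 2872 and 3565 in p53Mdm2 KO, and 5376, 4089 and 3717 in p53 KO. These transcripts, picked as the most alike with a symbol among 12852 genes, moved with Cav1 or with Ptrf over the libraries. Each was lowest in Mdm2 C462A replicate 2, and r without that library was not computed for them. Their part in the coat values was not tested.

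The other genes of caveolae were read from a list of 14 partners, of which 13 were in the table and 11 tested. Between Mdm2 C462A and p53 KO, 9 of the 11 were lower and 2 higher, with a median log2 difference of -0.44 beside 0.01 over all genes, and 5 had libraries that did not overlap, all lower, beside 14.4% of all genes on that side and 14.1% on the higher side. Ehd4, an EHD2 relative, had 1465 and 1172 normalized reads in Mdm2 C462A, 1598 and 2164 in p53Mdm2 KO, and 2900, 2576 and 2388 in p53 KO. Its log2 difference was -0.98 (SE 0.206) for Mdm2 C462A and -0.49 (SE 0.206) for p53Mdm2 KO, both against p53 KO, and all 4 libraries lay below all 3 controls. Ehd1, another relative, had 4229 and 4715 normalized reads in Mdm2 C462A, 5366 and 6232 in p53Mdm2 KO, and 6348, 6669 and 5810 in p53 KO, a difference of -0.49 (SE 0.16) for Mdm2 C462A against p53 KO. Limma called 0 of the 11 in any comparison, and Ehd1 and Ehd4, both lower in Mdm2 C462A than in p53 KO, were the 2 with an unadjusted p under 0.05 there, beside 5.44% of all genes lower and 4.98% higher. Between p53Mdm2 KO and p53 KO 8 of the 11 were lower and 3 higher (median -0.14).

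Lists of other uptake routes were set beside them. Clathrin-coated pit genes, with 22 of 23 tested, were lower in 13 and higher in 9 in Mdm2 C462A against p53 KO (median -0.12), and lower in 12 and higher in 10 in p53Mdm2 KO against p53 KO (median -0.08). In the first comparison libraries did not overlap for 4 genes lower and 1 higher, beside 14.4% and 14.1% of all genes. Cltb, which encodes a clathrin light chain, had 1177 and 1092 normalized reads in Mdm2 C462A and 1810, 1489 and 1586 in p53 KO, a log2 difference of -0.51 (SE 0.161). Hip1, which encodes a clathrin-binding protein, had 2970 and 2509 in Mdm2 C462A and 3487, 3369 and 3785 in p53 KO and differed by -0.37 (SE 0.153). In p53Mdm2 KO Hip1 had 3057 and 3045, also below every p53 KO library, while Cltb (1533 and 1569) overlapped p53 KO. Of the 13 tested genes of fluid-phase and other endocytosis 8 were lower and 5 higher in Mdm2 C462A against p53 KO (median -0.06), among them the sorting nexin gene Snx18 (-0.58, SE 0.183). Libraries did not overlap for 5 of these 13, all lower, beside 14.4% of all genes lower and 14.1% higher. Among the caveola partners it was 5 of 11. In p53Mdm2 KO against p53 KO 8 of the 13 were lower and 5 higher (median -0.10). The raft scaffold genes Flot1 and Flot2 and their relative Stom had a median of -0.15 in Mdm2 C462A against p53 KO and of 0.26 in p53Mdm2 KO against p53 KO. In the first of these comparisons Flot1, named after its values were seen, had 2529 and 2343 normalized reads in Mdm2 C462A and 1591, 2175 and 2027 in p53 KO, a log2 difference of 0.34 (SE 0.228) with no overlap. Flot2 and Stom differed by -0.15 (SE 0.209) and -0.20 (SE 0.323). Limma called 0 members of each of these lists in the 3 comparisons.

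**Figure D5:**
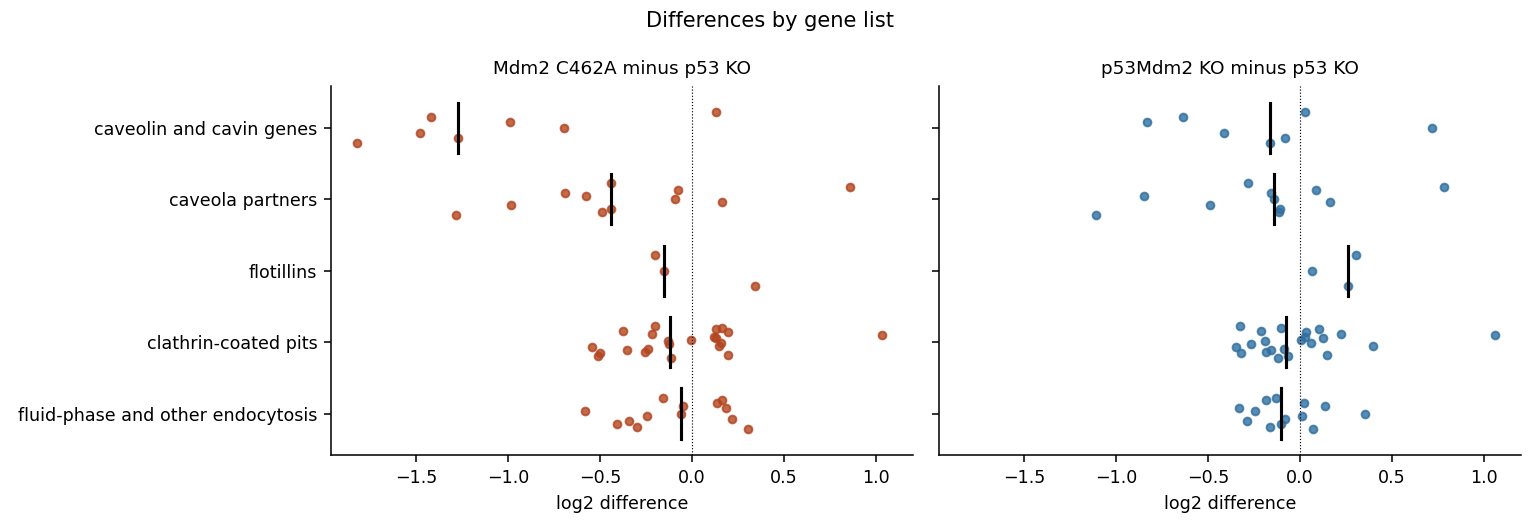
Log2 difference on the deposited scale (x axis) of each tested gene in 5 lists (rows), for Mdm2 C462A minus p53 KO (left) and p53Mdm2 KO minus p53 KO (right). Points are genes, spread vertically for legibility, and thick lines are list medians. The caveolin and cavin median is -1.27 on the left and -0.16 on the right, and that of caveola partners is -0.44 and -0.14. Clathrin-coated pit genes have -0.12 and -0.08, fluid-phase and other endocytosis genes -0.06 and -0.10, and flotillins -0.15 and 0.26. Members and lists were chosen with earlier results of these data known, so the medians are descriptions.

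Of 8 endothelial markers 5 passed the filter on low values. Cldn5 was at 0 in all libraries and Pecam1 below 10 normalized reads, while Kdr had 312 and 503 in Mdm2 C462A, 693 and 994 in p53Mdm2 KO and 22.7 to 443 in p53 KO. The summed level of the 8 was 473 and 628 in Mdm2 C462A, 888 and 1100 in p53Mdm2 KO and 97.3 to 619 in p53 KO. Of 7 adipocyte markers 6 were below 10 normalized reads in every library, with Plin1 and Cfd at 0. Their sum was 144 and 101 in Mdm2 C462A, 74.2 and 120 in p53Mdm2 KO and 161 to 4335 in p53 KO, and the highest value was Fabp4 in p53 KO replicate 1. Skeletal muscle markers Myod1, Myog, Ckm, Myh3 and Tnnc2 were under 10 normalized reads in every library, and the list sum of 8 markers, nearly all Acta1, was 1141 and 889 in Mdm2 C462A, 1448 and 3507 in p53Mdm2 KO and 1532 to 5045 in p53 KO. Epithelial markers, mostly Krt19 except in p53 KO replicate 1, summed to 249 and 2055 in Mdm2 C462A, 1523 and 1961 in p53Mdm2 KO and 264 to 786 in p53 KO. The 7 leukocyte markers in the table summed to 1411 and 424 in Mdm2 C462A, 1529 and 476 in p53Mdm2 KO and 538 to 3086 in p53 KO. The part of other cells in the coat values was not tested.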

How the data were processed

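The authors deposited 1 table of log2-like, variance-stabilized values, read as such from the values themselves: a gene with no reads has 3.36 in all 7 columns. The submitters' processing notes list CASAVA 1.8.2, Bowtie2 2.1.0, DESeq 1.14.0 and mm9, with no role for each. Per the labels' protocols, TruSeq RNA libraries were sequenced from 1 end for 50 bp. How reads were counted, on which annotation and whether by strand, is not given in the sources used here.

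Inverting the parametric form of the transformation gave normalized reads. In each library 100% of values above 0 were whole multiples of 1 step within 0.05 of a read. The limit of 3 reads came to between 2.65 and 3.86 normalized reads.

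Limma 3.58.1 (R 4.3.3) was fitted to the deposited values as 3 genotype means over all 7 libraries, with a trended prior variance (4 residual degrees of freedom), for 16900 genes with a mean of at least 10 normalized reads. P-values were two-sided and Benjamini-Hochberg adjusted over all genes, threshold 0.05. The fit was tested on simulated data. Log2 differences understate the change of genes with few reads. Members, lists, naming rule and tests were chosen with earlier results of these data known. The rule named all members, from each list up to 4 genes with the smallest unadjusted p under 0.05 against p53 KO (otherwise the 2 most abundant), and the 5 genes with a symbol most like Cav1 and like Ptrf with a mean of at least 100. Other genes were named after their values were seen. Alternatives are given in the closing section.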

Additional observations from a re-analysis of the deposited data

How the results depend on the processing

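The count of genes called by limma was 0 in all 3 comparisons under each alternative, with 1 exception. Leaving out both p53 KO replicate 1 and Mdm2 C462A replicate 2 gave 1 called gene, which is no coat gene, for p53Mdm2 KO against p53 KO. Leaving out each library in turn gave 0 in every comparison (range 0 to 0). Where that left a group with 1 library, it was assumed to vary like the others. Same replicate numbers did not deviate together (r between -0.16 and 0.20), so the numbers were not taken to pair samples. Deviations in a group of 2 libraries mirror each other, so these r cannot settle pairing. Mdm2 C462A replicate 1 and p53Mdm2 KO replicate 1 were closest to each other (r = 0.9876), against 0.9506 and 0.9653 with their own genotype. The library closest to p53Mdm2 KO replicate 2 was p53 KO replicate 2 (0.979), while p53 KO replicates 2 and 3 were closest to each other (0.9855). Whether libraries shared a batch is unknown. With the replicate block the counts were 0, 0 and 0. Of 19 alternatives, 6, 6 and 9 left every member value as it was (other filters or variance estimates, for instance, or a library of neither group left out). Of the member values under the others, 87 of 91 kept their sign for Mdm2 C462A against p53 KO, 83 of 91 for p53Mdm2 KO against p53 KO and 65 of 70 between the Mdm2 genotypes. All 4 sign changes in the first were Pacsin2. Those in the second were Cav1, Cav2 and Pacsin2, and those in the third Prkcdbp and Pacsin2. These counts hold repeats, so they do not measure how firm a sign is. In the first and second comparison the replicate block gave the same differences as leaving out p53 KO replicate 3. Leaving out both libraries that stand apart repeated p53 KO replicate 1 left out in the second, and Mdm2 C462A replicate 2 left out in the third. Median centring shifted libraries by -0.0071 to 0.0061 (log2), and upper-quartile scaling used factors of 0.969 to 1.0555. With upper-quartile scaling p53Mdm2 KO against p53 KO was -0.10 for Cav1 and -0.013 for Cav2.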

Other observations

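The muscle members of the caveolar families were highest in the same library. Murc, which encodes cavin 4 of striated muscle, had 132 and 79.4 normalized reads in Mdm2 C462A, 103 and 136 in p53Mdm2 KO, and 734, 192 and 147 in p53 KO, with the 734 in replicate 1. That library also held the most Cav3 (22 reads), Cav2 (5222), Ptrf (42217) and Prkcdbp (4549). It had 99.1 normalized reads of the fibroblast marker Thy1 and 4328 of the fatty acid carrier gene Fabp4, against at least 6592 and at most 174 in every other library. Of the 8 skeletal muscle markers 5, among them the defining markers Myod1 and Ckm, stayed under 10 normalized reads in all libraries. Acta1 had 820 to 4967, Ttn 18.2 to 85.0 and Mylpf 6.17 to 21.3 over the 7 libraries. Without p53 KO replicate 1, Murc still lay lower in all 4 libraries with an Mdm2 defect than in the other p53 KO libraries, by a narrower margin.

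Ratios to Cav1 divided the genotypes with an Mdm2 defect. Ehd2 over Cav1 was 0.654 and 0.782 in Mdm2 C462A, against 0.405 and 0.378 in p53Mdm2 KO, while p53 KO spanned 0.440 to 0.742. Pacsin2 over Cav1 was 0.380 and 1.92 in Mdm2 C462A, 0.273 and 0.232 in p53Mdm2 KO and 0.137 to 0.281 in p53 KO. The value of 1.92 belongs to Mdm2 C462A replicate 2, where Pacsin2 was highest and Cav1 lowest of all 7 libraries. These ratios were chosen after the values were seen and carry no test.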
